A study of Homo sapiens with 4 samples.

Results

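The globin genes described here are the human genes for the haemoglobin chains HBE1 (epsilon), HBG1 and HBG2 (gamma), HBD (delta), HBB (beta), HBZ (zeta), HBA1 and HBA2 (alpha), together with AHSP, the erythroid chaperone of free alpha chains, and BCL11A, a repressor of the gamma genes. These 10 genes were chosen by name, with earlier results of the same arrays known, and every probe that the platform annotation assigns to them was taken, 13 of the 47321 probes on the array. The cells are MDA-MB453, a breast cancer line long kept in culture, grown in DMEM with fetal bovine serum and told apart by green fluorescence (GFP). The labels call the GFP-positive fraction cancer stem-like and the GFP-negative fraction non-stem-like, and list no other treatment. Each group has 2 arrays. No source used here gives what drives GFP, whether the line is 1 clone or how the fractions were separated. The series text says that paired RNA of both fractions was isolated on separate days, and that RNA batches were combined, without saying how. No label states separate cultures within a group, so the p-values below reflect the spread between these samples alone, and that spread may be technical.

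Haemoglobin is a tetramer of 2 alpha-type and 2 beta-type chains around haem. The beta-type genes lie in a row on chromosome 11 and the alpha-type genes on chromosome 16, and each row is controlled by a distant enhancer region that is active in red cell precursors. Embryonic red cells use zeta and epsilon, fetal red cells alpha and gamma, and adult red cells alpha and beta with a little delta. BCL11A and ZBTB7A keep the gamma genes silent in adult red cell precursors. In the gene table for GRCh38.p14 the order on chromosome 11 is HBB, HBD, the pseudogene HBBP1, HBG1, HBG2, HBE1, and on chromosome 16 it is HBZ, HBM, HBA2, HBA1, HBQ1. AHSP lies elsewhere on chromosome 16 and BCL11A on chromosome 2.

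Epsilon globin had the largest fitted difference in the set. The HBE1 probe (ILMN_1651358) gave signals of 2962 on the first and 3482 on the second GFP-positive array, against 92.0 and 111 on their GFP-negative counterparts. Its detection p, the rank of a probe among the negative controls of its array, was 0 on both GFP-positive arrays, and in GFP-negative cells it was 0.999 and 0.912, where detection means a p under 0.05. HBE1 was therefore bright on both GFP-positive arrays and not above background on either GFP-negative array, and the groups did not overlap. After background correction and quantile normalization its log2 signal was 11.69 ± 0.16 against 4.85 ± 0.10 (SD, n = 2), which is at least 47.6-fold higher in GFP-positive cells when the GFP-negative value is set at the dimmest detected signal. In all, 1192 tested probes were detected on both GFP-positive arrays and on neither GFP-negative array, and 24 of these, HBE1 included, had a bound at least as large. In a bulk measurement, more cells with a transcript and more of it per cell cannot be told apart.

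The gamma genes went the same way. HBG1 (ILMN_1796678) had signals of 476 and 473 in GFP-positive cells against 150 and 141 in GFP-negative cells, with detection in the former only. It was at least 4.89-fold higher in GFP-positive cells (log2 signal 8.41 ± 0.10 against 5.22 ± 0.06, SD, n = 2). HBG2 (ILMN_2084825) had signals of 508 and 573 on the GFP-positive arrays against 210.2 and 211, and both GFP-negative values lay at the edge of detection, with detection p of 0.0468 and 0.0403. Its log2 difference, GFP-positive minus GFP-negative, was 2.52 ± 0.17 (SE), or 5.74-fold (8.68 ± 0.10 against 6.16 ± 0.03). For neither gamma gene did the arrays of the groups overlap. HBG1 and HBG2 are near-identical copies, so how the signal divides between them is uncertain, and probe sequences were not used here, so binding of HBE1 transcripts to the gamma probes was not tested.

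Of the alpha genes, HBA2 was higher in GFP-positive cells by a smaller amount and HBA1 was not detected. One HBA2 probe (ILMN_2127842) had signals of 255 and 314 in GFP-positive cells against 215 and 199, and was detected on both of the former and 1 of the latter. Its log2 difference was 1.01 ± 0.22 (SE). The other HBA2 probe (ILMN_1667796) had 215 and 286 against 182 and 163, was detected in GFP-positive cells only, and was at least 1.49-fold higher. On both HBA2 probes GFP-positive array 2 was brighter than GFP-positive array 1, and the log2 difference within the pair of arrays numbered 2 (1.38 and 1.61) was larger than that within the pair numbered 1 (0.63 and 0.65). The HBA1 probe had 153 and 175 against 138 and 150.5, with no detection on any array, so its groups did not overlap but both lay at background. HBA1 and HBA2 encode the same protein from near-identical transcripts, so the assignment of alpha signal to either copy is uncertain.

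Beta, delta and zeta globin were at or near background in both groups. HBB, the adult beta chain, had signals of 207 and 187 in GFP-positive cells against 217 and 201, and was detected on array 1 of each group. HBD had 153 and 196 against 166 and 175, and HBZ had 152 and 127 against 138 and 129, with no detection. The groups overlapped for all 3 genes.

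AHSP and BCL11A showed no separation above background. AHSP had 246 and 192 against 227 and 189, so it was detected on array 1 of each group and on neither array 2. The brightest BCL11A probe (ILMN_1752899) had 222 and 154 against 182 and 232, which is detection on 1 array of each group. The other BCL11A probes had signals of 107 to 142 and were detected on no array; those of ILMN_2255133 (136 and 142 against 124 and 110.4) did not overlap between groups but lay below the dimmest detected signal. Differences of probes at background have no interpretable size and none is given.

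**Figure D1:**
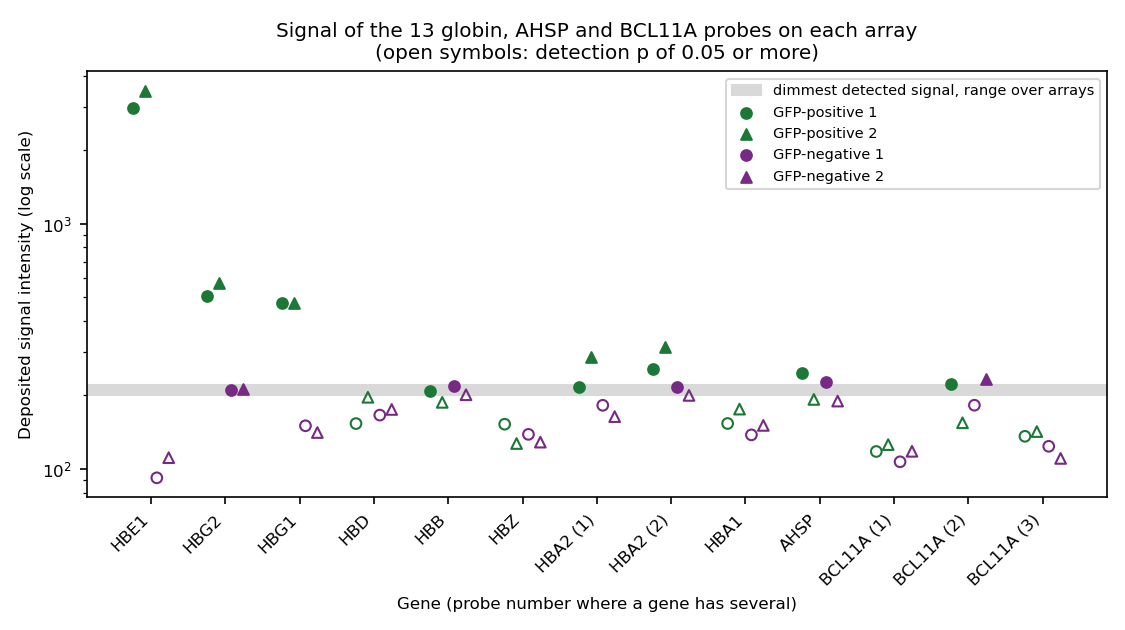
Deposited signal (log axis) of each of the 13 probes on the 4 arrays. Filled symbols have a detection p under 0.05, open symbols do not, and the grey band spans the dimmest detected signals (200 to 221). HBE1, HBG1 and HBG2 stand apart by group, HBA2 does so by less, and for the other genes no probe separates the groups above the band, although AHSP rises above it on array 1 of each group and a BCL11A probe on GFP-negative array 2 and, barely, GFP-positive array 1. HBA2 (1) is ILMN_1667796 and HBA2 (2) is ILMN_2127842.

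The share of these genes that could enter a test was small. Probes were tested when detected on both arrays of at least 1 group, and 5 of the 13 passed, for HBE1, HBG1, HBG2 and HBA2. HBE1, HBG1 and both HBA2 probes passed only through the GFP-positive group, so a difference was built into their passing, and HBG2 alone passed through both groups. Since the genes were proposed with this comparison known, their differences are given as a description without a p-value. As background, 40.5% of the 18098 tested probes had an adjusted p under 0.05, of which 18.8% of all tested were higher and 21.7% lower. Nothing is read from the globin probes against that share.

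Set side by side within the same arrays, the log2 difference of HBG1 minus that of HBE1 was -3.65, and that of HBG2 minus that of HBE1 was -4.32. The HBG1 difference exceeded that of HBG2 by 0.67, and those of the HBA2 probes by 2.06 and 2.19. HBG2 exceeded the HBA2 probes by 1.39 and 1.51. These are gaps between changes, not between levels, since different probes bind with different strength. The SD of such a gap between the arrays of a group was at most 0.60, reached for HBG1 against an HBA2 probe. For HBE1, HBG1 and 1 HBA2 probe the GFP-negative value was not above background, so gaps that involve them rest on fitted values there. As bounds, the log2 differences were at least 5.57 for HBE1 and 2.29 for HBG1, so the HBG1 bound lay below the 2.52 of HBG2 and the order of the gamma genes, and of HBG1 and HBE1, is not established. None of these gaps was tested. HBB and AHSP, each detected on 1 array of each group and not tested, are given no difference to set beside gamma.

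The fitted differences within each pair of same-numbered arrays were close to each other for HBE1 and the gamma genes. Within pair 1 the log2 differences were 6.80 for HBE1, 3.22 for HBG1 and 2.43 for HBG2, and within pair 2 they were 6.88, 3.17 and 2.61. Without background correction the differences shrank to 4.89, 1.63 and 1.33, and to 0.42 and 0.49 for the HBA2 probes, all still higher in GFP-positive cells.

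**Figure D2:**
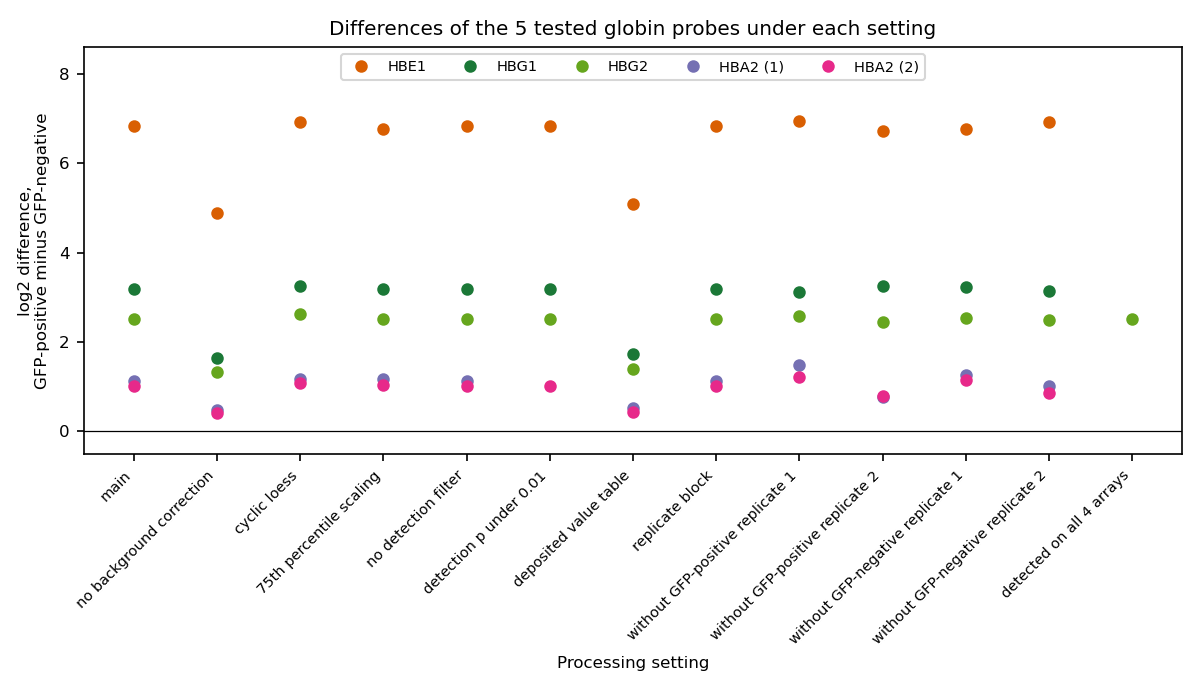
Log2 difference, GFP-positive minus GFP-negative, of the 5 tested globin probes under the main setting and each alternative. All points lie above 0, and the points drop when background is left in the signals. HBG2 is the only one of them detected on all 4 arrays.

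Among globin genes outside the chosen set, HBQ1 went the other way. HBQ1, the theta-type gene at the end of the alpha cluster, had signals of 1986 and 2105 in GFP-negative cells against 202 and 183 in GFP-positive cells, where it was detected on 1 of 2. Its log2 difference was -4.92 ± 0.22 (SE; 5.87 ± 0.37 against 10.80 ± 0.03, SD, n = 2; adjusted p = 3.24e-06, limma moderated test with Benjamini-Hochberg adjustment). HBQ1 entered the test only through the GFP-negative group, where it was high. Its GFP-positive values lay near background, so the size of the difference rests on fitted values there. The HBB-type pseudogene HBBP1, which lies between HBD and HBG1, had 200 and 252 on the GFP-positive arrays against 208 and 193 and was detected on GFP-positive array 2 only. HBM, another alpha-type gene, and NGB, the globin of neurons, were not detected on any array. MB, the oxygen store of muscle, and CYGB, a globin of many tissues, were each detected on 1 array of each group.

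Beside the beta cluster on the HBE1 side, 4 genes entered the test only through the GFP-positive group, where they were high. OR51B4, an olfactory receptor gene and the nearest named gene on that side, had signals of 807 and 1291 in GFP-positive cells against 156 and 177 in GFP-negative cells. It was at least 13.2-fold higher (adjusted p = 1.61e-05, limma). OR51I1, an olfactory receptor gene farther out, had 516 and 452 against 115 and 99.5 and was at least 5.01-fold higher (adjusted p = 1.00e-05). OR51B5 had 434 and 492 against 164 and 163 on its brighter probe and was at least 4.71-fold higher (adjusted p = 1.34e-05), and its other probe was at least 3.16-fold higher. TRIM6, a ubiquitin ligase gene past the receptor genes, had 393 and 352 against 147 and 123 and was at least 3.34-fold higher (adjusted p = 4.84e-05). All 4 were detected on both GFP-positive arrays and on neither GFP-negative array. OR51B2, between OR51B4 and OR51B5, was detected on GFP-positive array 2 only (192 and 260 against 131 and 121) and was not tested.

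On the HBB side most genes were below detection. Of 15 genes with a named probe among the 30 table genes before HBB, 13 were not detected on any array and none was tested. Of 15 with a probe among the 30 table genes after HBE1, 8 were not detected and 5 were tested, and those 5 were higher in GFP-positive cells, the 4 above and TRIM5 (log2 difference 0.71 ± 0.24, SE; adjusted p = 0.0496). Of the 5, TRIM5 alone was detected in both groups. The other 4 entered the test only through the group where they were high, so their direction was built in, and nothing is read from the count. The windows were chosen after the data were examined. In the list of beta-cluster neighbours, 9 of 18 genes with a probe were tested, 6 were higher, 1 was lower and 2 did not pass, with a median log2 difference of 0.74. With probes detected on all 4 arrays, 2 were higher, and without 1 array at a time 4 or 5 were. Over all 10955 tested genes, 45.8% had a called probe, 21.7% higher and 24.3% lower, and the median was -0.05. The higher genes besides those named were TRIM5 and TRIM21, whose calls were lost in 4 of 12 alternatives each (adjusted p up to 0.247 and 0.169), and the lower one was the calcium sensor gene STIM1 (-0.55, lost in 6). Among 371 olfactory receptor genes with a probe anywhere in the genome, 16 were tested, 4 were higher (OR51B4, OR51B5, OR51I1 and OR5D18) and 3 were lower (OR2T33, OR2Z1 and OR11H1), beside 21.7% higher and 24.3% lower among all tested genes. OR5D18 was higher by at least 1.09-fold (adjusted p = 0.0461).

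Genes beside the alpha cluster were mostly lower in GFP-positive cells, on both sides. Of 16 listed genes, all with a probe, 14 were tested, 12 were lower, 1 was higher and 1 did not pass. Their median log2 difference was -1.16. Over all tested genes, 24.3% were lower and 21.7% higher, and the median was -0.05. RHBDF1, a rhomboid-family gene, had signals of 816 and 842 against 3583 and 3617 in GFP-negative cells (log2 difference -2.16 ± 0.17, SE; adjusted p = 5.68e-05, limma). NPRL3, whose introns hold the alpha-globin enhancers, had a log2 difference of -1.16 ± 0.17, FAM234A had -1.74 ± 0.20 and LUC7L, the gene next to HBQ1, had -1.02 ± 0.18. DECR2, a peroxisomal fatty acid enzyme gene, had -1.46 ± 0.19. NME4, a mitochondrial nucleoside diphosphate kinase gene, was the exception, at 1.72 ± 0.19. The count of lower genes was 9 without GFP-positive replicate 2 and 10 to 12 without each of the other arrays. HBA2 and HBQ1, inside the same row, differed in opposite directions.

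Of the blocks counted along chromosome 16, the one that holds the alpha cluster had the largest share of lower genes. Of the first 50 tested genes of chromosome 16, counted from the end where the cluster lies and with HBA2 and HBQ1 among them, 50% were lower and 20% higher, with a median log2 difference of -0.53. The lower genes of this block lay mostly from POLR3K to STUB1, the stretch that includes the cluster and its close neighbours. Of the next 50, 34% were lower and 14% higher (median -0.22). In the same count, blocks 3 and 4 of 50 genes each had 16% lower and 14% higher (medians -0.09 and -0.07). Block 5 had 32% lower and 12% higher (median -0.26). Over all 522 tested genes of chromosome 16, 25.1% were lower and 17.6% higher. Of all tested genes, 24.3% had at least 1 probe lower and 21.7% at least 1 higher. On chromosome 11, 19.6% of 638 tested genes were lower and 23.8% higher, and in the first 50, which include the beta cluster, 24% were lower and 22% higher. In its blocks 2, 3, 4 and 5, 16%, 10%, 10% and 8% were lower and 32%, 28%, 36% and 28% higher, so shares varied by block there too. Whether DNA copy number or chromatin differs between the fractions was not tested.

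**Figure D3:**
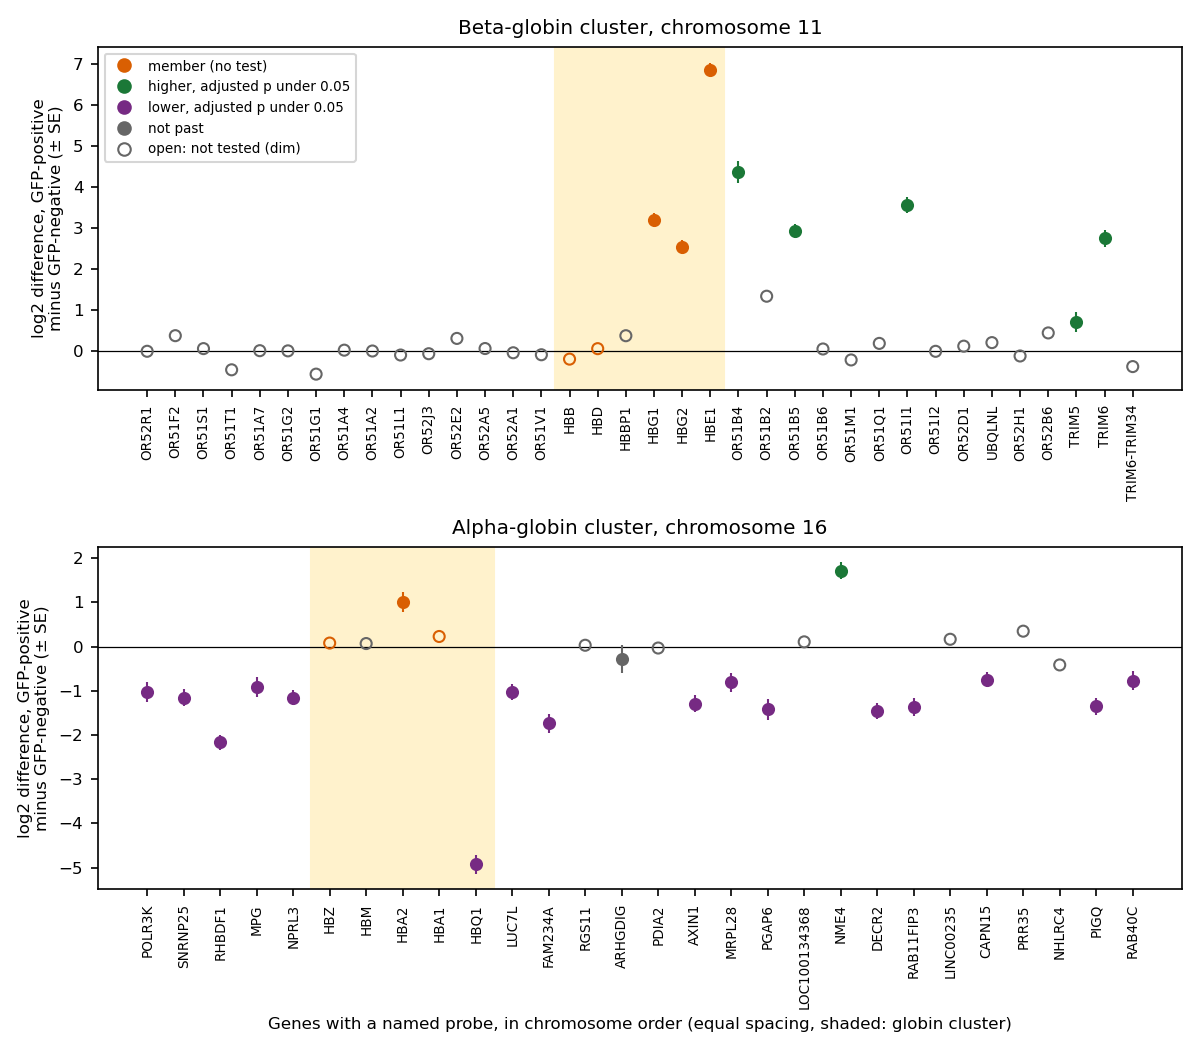
Log2 difference, GFP-positive minus GFP-negative, with SE bars for tested probes, of genes in chromosome order around the beta cluster (top) and the alpha cluster (bottom), 1 probe a gene at equal spacing. Open points were too dim to test. At the top, HBG1, HBG2 and HBE1 and 5 tested genes on the HBE1 side lie above 0. Of these 5, 4 entered the test only through the GFP-positive group. At the bottom, 15 tested neighbours lie below 0 with a call, while HBA2 and NME4 lie above it.

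Markers of red cells were at or near background in both groups. Of 9 erythroid cell markers with a probe, none was detected on both arrays of either group. The haem synthesis enzyme ALAS2, the transcription factors KLF1 and GATA1, RHAG, EPB42 and CA1 were not detected on any array. The band 3 gene SLC4A1, HEMGN and TRIM58 were each detected on 1 GFP-negative array and on no GFP-positive array. The summed signal of the brightest probes of the 9 genes was 1371 and 1439 in GFP-positive cells against 1369 and 1461.

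Of the markers of other blood cells, 1 passed the test, where 45.8% of all tested genes had a call. Both tested platelet markers missed the threshold, PPBP at a log2 difference of -0.38 and GP1BA at -0.12, and both were detected on all 4 arrays. PF4, ITGA2B and GP9 were not detected on any array. Of 11 leukocyte markers with a probe, 3 were tested and 1 was higher, the lysosomal gene CD68, by 2.32 ± 0.22 on the log2 scale on 1 probe, while its brighter probe had -0.40 ± 0.21 and did not pass. PTPRC, the defining leukocyte surface gene, was not detected, nor were CD3E, LYZ, NKG7 and MPO. The summed leukocyte signal was 2309 and 2573 against 2807 and 2603.

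Of 9 fetal liver and yolk sac endoderm markers, 2 of 3 tested were lower in GFP-positive cells, beside 24.3% of all tested genes. The transcription factor gene SOX17 was lower by at least 90.9-fold and GATA6 by at least 1.39-fold. Both were detected on both GFP-negative arrays and on no GFP-positive array. They entered the test only through the group where they were high, so their direction was built in. The fetal serum protein gene AFP was not detected on any array, nor were APOB, TTR, GATA4 and FOXA2. The summed signal of this list was 1391 and 1507 in GFP-positive cells against 8291 and 8619 in GFP-negative cells. SOX17 alone gave 106 and 122 against 6804 and 7186, so nearly all of the gap between the sums came from that gene.

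The labelled cell type was read from luminal and apocrine breast markers. Of 13 with a probe, 8 were tested, 3 were higher in GFP-positive cells, 2 were lower and 3 did not pass, beside 21.7% higher and 24.3% lower among all tested genes. MLPH, a melanosome transport gene, was at least 45.6-fold higher, and the luminal keratin genes KRT8 and KRT19 had log2 differences of 5.18 ± 0.33 and 3.20 ± 0.22 (SE). MLPH was detected on both GFP-positive arrays and on no GFP-negative array, so its direction was built in. The receptor gene ERBB2 had -1.46 ± 0.17 and the luminal factor gene FOXA1 -0.94 ± 0.22, whose call was lost in 2 of 12 alternatives (adjusted p up to 0.0989). GATA3, PIP, AGR2 and TFF3 were not detected on any array. The summed signal was 33227 and 36651 in GFP-positive cells and 12906 and 13586 in GFP-negative cells. KRT8 gave 12411 and 12727 against 658 and 417, and KRT19 gave 11595 and 12569 against 1823 and 1425. ERBB2 gave 1705 and 1681 against 5128 and 4934. The gap between the sums therefore came mainly from the keratin genes and does not describe the list as a whole. The part of these marker differences between the fractions in the globin values was not tested.

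Of the transcription factors and receptor signalling genes of red cell development, most were not detected. Of 16 with a probe, 6 were tested, 1 was higher, 2 were lower and 3 did not pass (median log2 difference -0.22), beside 45.8% of all tested genes with a call. The haematopoietic factor gene GATA2 had a log2 difference of -2.26 ± 0.22 (SE; adjusted p = 0.000202) and the kinase gene JAK2, which acts below the erythropoietin receptor, had -1.73 ± 0.30. MYB, which favours gamma silencing in red cell precursors, had 0.74 ± 0.25 with an adjusted p of 0.0497, and its call was lost in 4 of 12 alternatives. GATA1, KLF1, TAL1, LDB1, NFE2, GFI1B, SOX6, IKZF1, STAT5A and STAT5B were not detected on any array.

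Most regulators known to silence or modulate gamma globin did not pass. Of 21 with a probe, 19 were tested, 2 were higher, 3 were lower and 14 did not pass (median -0.15), where 45.8% of all tested genes had a call. ATF4, the stress-response factor below the haem-regulated kinase, was higher by 1.15 ± 0.18 on 1 probe (adjusted p = 0.0023) and by 0.60 ± 0.18 on its brightest, a call lost in 6 of 12 alternatives (adjusted p up to 0.234), while its dimmest probe had 0.04 and did not pass. MTA2, a subunit of the NuRD corepressor complex, had -0.80 ± 0.18 and lost its call without either GFP-positive array. CHD4, the NuRD ATPase gene, had 0.55 on 1 of 2 tested probes, and the nuclear receptor gene NR2C1 had -0.55 on 1 of 4. ZBTB7A, named after its value was seen because it acts beside BCL11A, had -0.54 ± 0.18 with an adjusted p of 0.0474. The calls of CHD4, NR2C1 and ZBTB7A were lost in 5, 6 and 9 of 12 alternatives, with adjusted p up to 0.224, 0.262 and 0.287.

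Of RNA-binding and chromatin genes of fetal tissues, 2 of 3 tested were higher, beside 21.7% of all tested genes. IGF2BP2 had a log2 difference of 1.61 ± 0.18 (adjusted p = 0.00033) and HMGA2 was at least 2.48-fold higher on 1 of its probes. That HMGA2 probe was detected on both GFP-positive arrays and on no GFP-negative array, so its direction was built in. IGF2BP3 was bright in both groups and did not pass. LIN28B, which favours gamma expression in red cell precursors, was not detected on any array, nor were LIN28A and IGF2BP1. The listed genes numbered 6, with 3 tested.

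Haem synthesis genes were detected in both fractions and went different ways. Of 12 with a probe, 11 were tested, 1 was higher, 2 were lower and 8 did not pass (median 0.08), beside 45.8% of all tested genes with a call. CPOX, coproporphyrinogen oxidase, had signals of 2965 and 2816 against 925 and 1010 and a log2 difference of 1.90 ± 0.17 (adjusted p = 0.000122). FECH, the ferrochelatase that inserts iron into protoporphyrin to form haem, had -0.83 ± 0.17 and UROS, uroporphyrinogen synthase, -0.80 ± 0.23. The FECH call was lost without GFP-positive replicate 1 (adjusted p = 0.0508), and the UROS call in 4 of 12 alternatives (up to 0.134). Of 13 genes for haem breakdown and transport, 7 were tested, 1 was higher, 2 were lower and 4 did not pass, beside the same 45.8%. The haem oxygenase gene HMOX2 was higher (1.81 ± 0.24), and the haem transporter genes SLC48A1 and FLVCR1 were lower (-1.19 ± 0.19 and -0.98 ± 0.23). The FLVCR1 call was lost in 3 alternatives (up to 0.0948). FLVCR1 was detected on 1 GFP-positive array and both GFP-negative arrays, so it entered the test only through the group where it was high.

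Iron genes included both directions. Of 16 with a probe, 12 were tested, 6 were higher, 1 was lower and 5 did not pass (median 0.52), beside 21.7% higher and 24.3% lower among all tested genes. CYBRD1, a ferric reductase of the cell surface, had 1053 and 1284 against 128 and 145 and was at least 15.6-fold higher (adjusted p = 1.72e-06). CYBRD1 was detected on both GFP-positive arrays and on no GFP-negative array, so its direction was built in. FTL, the ferritin light chain, had 26535 and 35914 against 6827 and 6670, a log2 difference of 2.40 ± 0.20 (adjusted p = 7.19e-05). The endosomal ferric reductase gene STEAP3 had 1.64 ± 0.19 and LCN2, a siderophore-binding protein gene, 1.05 ± 0.23, whose call was lost without GFP-positive replicate 1 (adjusted p = 0.0644). Without 1 array at a time, 4 or 5 iron genes were higher.

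Red cell membrane and skeleton genes were split. Of 16 with a probe, 7 were tested, 2 were higher, 4 were lower and 1 did not pass (median -0.70), beside 21.7% higher and 24.3% lower among all tested genes. The erythroid adhesion gene ERMAP was at least 4.16-fold lower (adjusted p = 7.28e-05), ankyrin ANK1 had -2.07 ± 0.25 and stomatin STOM had -1.21 ± 0.18 on its brighter probe. The actin-capping gene TMOD1, detected in GFP-positive cells only, had signals of 325 and 374 against 180 and 200, a log2 difference of at least 1.58. ERMAP was detected in GFP-negative cells only. Both ERMAP and TMOD1 entered the test only through the group where they were high, so their direction was built in. SPTB, EPB42, RHAG, RHD, RHCE, KEL, ADD2 and ACKR1 were not detected on any array.

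**Figure D4:**
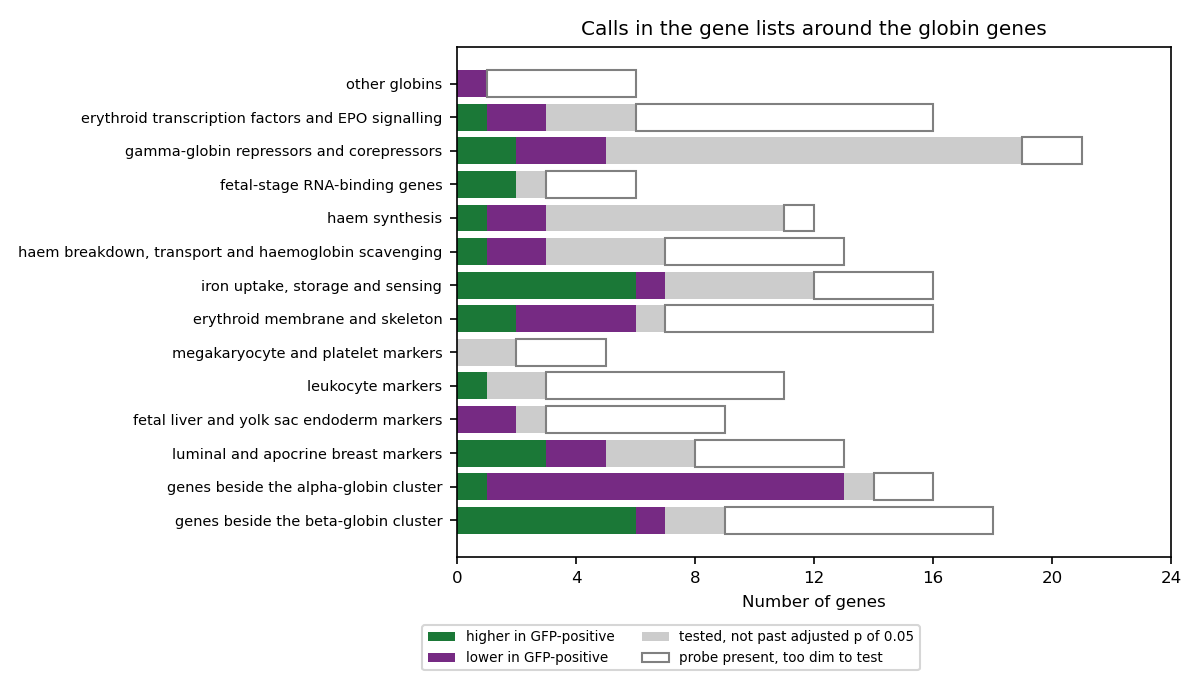
Number of genes in each list that were higher, lower or not past an adjusted p of 0.05, and those with a probe too dim to test. Of tested neighbours, 12 of 14 beside the alpha cluster are lower and 6 of 9 beside the beta cluster higher. Among the latter, OR51B4, OR51B5, OR51I1 and TRIM6 entered the test only through the group where they were high. Nothing is read from that count. Of tested regulators of gamma globin, 14 of 19 did not pass. Over all tested genes, 24.3% were lower and 21.7% higher. The erythroid marker list is not drawn because none of its genes was tested.

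Genes outside the set that changed most like the gamma genes were found from the distance between log2 values centred per probe over the 4 arrays. The closest to the mean of HBG1 and HBG2 were TTYH2, RIN1, TMEM151A, DNAJC22 and PRKCQ-AS1, at distances of 0.03 to 0.10, and each was detected in GFP-positive cells only. The closest to HBE1, a search added after the data were examined, were RAC2, ADAM19, ANO1, SNTB1 and TMCO1, at 0.18 to 0.30. HBG1 and HBG2 lay 0.70 apart, the HBA2 probes 0.23 apart, and HBE1 lay 3.66 from HBG1 and 4.32 from HBG2. With 4 arrays in 2 groups such a distance mainly reflects the size of the group difference.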

How the data were processed

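Total RNA was amplified to biotin-labelled cRNA for Illumina bead arrays, per the labels' protocols. The deposited intensity values are bead signals, not normalized per the file headers, with a deposited detection p-value beside each. The processing notes name GenomeStudio 2009.2, and no source used here says whether background was subtracted. A deposited table of log2 values equals the quantile-normalized signals to within 0.0042 (median 7.53), and no source states its normalization.

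In R 4.3.3 with limma 3.58.1, neqc corrected background from the detection p-values, added an offset of 16, quantile-normalized and took log2. Probes with detection p under 0.05 on both arrays of a group (18098) entered lmFit and eBayes, a 2-sided moderated test with 2 residual degrees of freedom and 5.31 from the prior, with Benjamini-Hochberg adjustment over them and a threshold of 0.05. An exact permutation of 2 against 2 gives no p below 0.333. A bound sets the higher of a dim probe's own value and the array's dimmest detected log2 value (6.09 to 6.17) against the brighter group. Between 36.8% and 38.5% of probes were detected per array, median signals were 178 to 192, and the number of arrays limits precision. Arrays correlated at 0.987 to 0.991 within groups and 0.843 to 0.856 between groups.

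A single gene symbol was listed for 30111 probes, several for 8, which stayed unnamed, and none for 17202. Symbols were updated through gene identifiers (30072 probes). Genes and lists were chosen with earlier results of these data known. Named by rule are all probes of the set, up to 4 called genes of each list with the largest change (up to 2 tested genes where none was called), the markers of the labelled cell type and the 5 patterns nearest to gamma globin. Other genes of the lists and windows (such as ZBTB7A, TRIM5, TRIM21, STIM1, NPRL3, LUC7L, OR51B2 and OR5D18), the counts by chromosome and receptor family, and the patterns nearest to HBE1 were chosen after their values were seen. Lists are described by counts and medians of the brightest tested probe, with no set test. The fit was tested on simulated data.

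The series text gives pairs isolated on different days. That the replicate number marks the pair was assumed, and deviations of same-numbered arrays correlated at 0.219. The main fit has no block. Alternatives were another background, scaling, filter or value table, the replicate block and leaving out each array.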

Additional observations from a re-analysis of the deposited data

How the results depend on the processing

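All 5 tested globin probes stayed higher in GFP-positive cells under each of the 12 alternatives in which they were tested. HBG2 had a log2 difference of 2.63 with cyclic loess. Without background correction the differences were 4.89 for HBE1, 1.63 for HBG1, 1.33 for HBG2, and 0.49 and 0.42 for the HBA2 probes ILMN_1667796 and ILMN_2127842. In the deposited value table they were 5.10, 1.73, 1.39, 0.52 and 0.44. Both settings leave the background in the signals, which by construction shrinks differences of dim probes. With probes detected on all 4 arrays, HBG2 alone of the set was tested, and with detection p under 0.01 the HBA2 probe ILMN_1667796 was not tested. Leaving out 1 array at a time gave 0.78 to 1.49 for the HBA2 probe ILMN_1667796, where GFP-positive replicate 2 was the higher array.

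Calls over all probes numbered 7322, and 4532 to 6937 without 1 array, lowest without GFP-positive replicate 2. Higher calls ranged from 2218 to 3363 and lower calls from 2314 to 3574. Higher calls were 2155 with probes detected on all 4 arrays. With the replicate block, 8471 probes were called, and the globin differences themselves do not move under the block. Genes called over all lists numbered 58 in the main setting and 41 to 64 otherwise. For 66 named probes of the lists under the 12 alternatives, 690 results kept their side of the threshold, 86 lost a call and 0 reversed. Direction was compared only where the main setting or the alternative passed the threshold. Signal near background limits HBB, HBD, HBZ, HBA1, AHSP and BCL11A to statements on detection.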
